A study of Mus musculus with 6 samples.

Results

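Complement is a set of secreted and membrane proteins that tags cells and microbes for removal. Antibody-bound C1 acts through the proteases C1r and C1s, and the lectin pathway acts through MASP proteases. Each route cleaves C4 and C2, and the resulting enzyme cleaves C3. The alternative pathway amplifies C3 cleavage with factor B, and inhibitors such as C1 inhibitor, CD55 and CD59 keep the cascade off the body's own cells. Most circulating complement is made in the liver, and fibroblasts are among the cells known to make several components locally.

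The 9 genes described here encode complement components and regulators and were taken by name from the 43346 genes of the count table. They are *C3* and *C4b*, the central proteins that become covalently attached to targets, *C1ra*, *Masp1*, *C2* and *Cfb*, which encode proteases of the classical, lectin and alternative pathways, and *Serping1*, *Cd55* and *Cd59a*, which encode inhibitors. Each name occurred in a single row of the table, and all 9 genes had enough counts to be tested. RNA-seq was performed on 3 control and 3 senescent samples of mouse adult fibroblasts (MAFs), primary ear cells from female C57BL6/J mice of adult age. Senescence was induced with an X-ray dose of 20 Gy followed by 21 days of culture, whereas control MAFs were sham irradiated. All cells were kept at 3% oxygen, received 100 nM dexamethasone for 2 hours and were collected 12 hours later, so every value is from glucocorticoid-treated cells at a single time point. The labels do not say whether the replicates of a group came from separate animals or cultures, and p-values therefore measure the spread between these samples, which may be technical.

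Total counts lay between 50288454 and 82229553 per library. CPM are counts per 1000000 counts, scaled between libraries with edgeR's TMM method. All 10 fibroblast markers were detected in both groups, but their summed level was between 17811 and 19901 CPM in control and between 6717 and 8018 CPM in senescent libraries, with 4 markers higher and 5 lower (adjusted p under 0.05, edgeR). The summed level of 7 chondrocyte markers was between 4808 and 5327 CPM in control libraries and between 352 and 431 CPM in senescent libraries, with 6 of 6 tested genes lower. Endothelial markers moved in the direction of most of the complement genes. The summed level of 7 such genes was between 2.55 and 2.96 CPM in control and between 8.18 and 8.71 CPM in senescent libraries. Of these, 5 of 5 tested genes were higher, where 36.2% of all tested genes were, while *Tie1* had at most 2 counts in a library. *Cdh5*, *Vwf* and *Kdr*, with between 3 and 14 counts per control library, passed the count filter only through the senescent group. A lower value could hardly have been found for them. Of tested keratinocyte markers 2 of 5 were higher and 1 lower, of skeletal muscle markers 1 of 3 was higher, and of Schwann cell and melanocyte markers 3 of 4 were lower. Among the higher ones, the keratinocyte marker *Dsp* and the muscle marker *Des* passed the count filter only through the senescent group. The part of these cell types in the differences described here was not tested. *Cdkn1a*, which encodes p21, was at 123 ± 2.01 CPM in control MAFs against 620 ± 16.3 CPM after irradiation (SD, n = 3 each), in the direction of the sample labels. Senescent replicate 3 lay farthest from the other libraries of its group (root mean square log2 differences of 0.386 and 0.400, against 0.258 between senescent replicates 1 and 2). In such bulk samples, fewer cells of a type and less RNA per cell cannot be told apart.

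After irradiation, 8 of the 9 genes were higher and 0 were lower, taking adjusted p-values under 0.05 from edgeR's quasi-likelihood fit of 17589 tested genes (Benjamini-Hochberg). The remaining gene, *Cd59a*, had overlapping groups. Among all tested genes, 36.2% were higher and 34.1% lower by the same rule, so that 70.3% passed it in either direction. The median log2 fold change of the 9 genes was 0.87, compared with 0.01 over all tested genes. The increase was over 2-fold, with an unadjusted p under 0.05, in *Cfb*, *Cd55*, *Serping1* and *C2*, or 4 of 9 genes, where 17.8% of all tested genes rose and 12.3% fell by that rule, 30.1% in all. In the same 8 genes, the 3 senescent values lay above the 3 control values, as in 38.4% of all tested genes. The opposite order was found in 37.0%, so that the groups were separate in 75.3% of tested genes. Without senescent replicate 3, the number of higher genes remained 8 of 9.

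**Figure D1:**
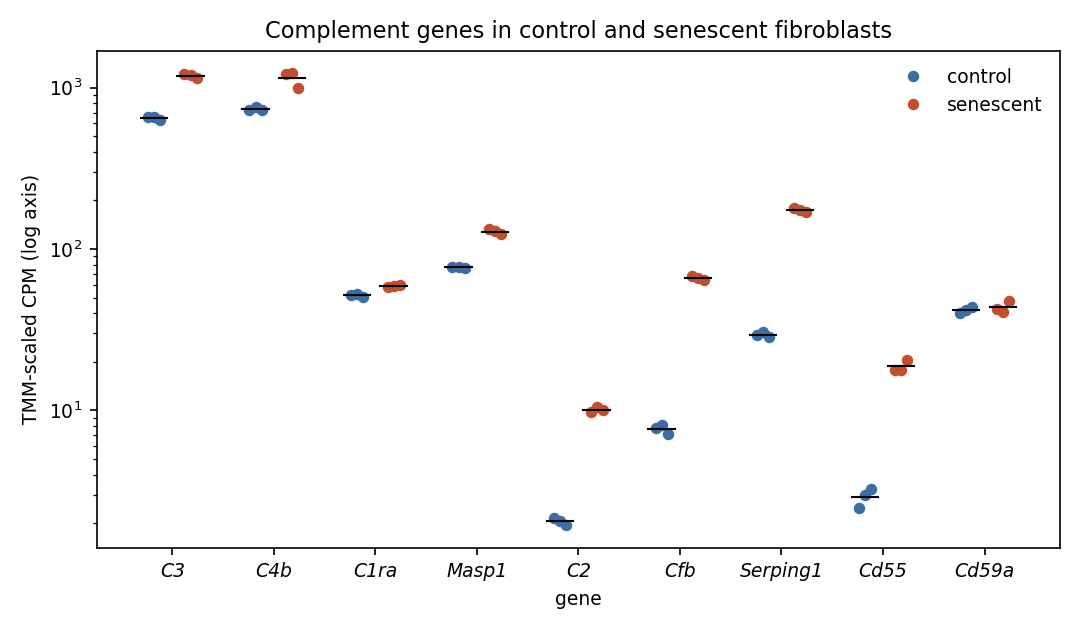
TMM-scaled CPM on a log axis for the 9 complement genes, with a point for each library (blue, control; orange, senescent; 3 per group) and a black line at each group mean. The senescent points lie above the control points in 8 genes and overlap them in *Cd59a*, and the widest gaps are in *Cfb*, *Cd55*, *Serping1* and *C2*.

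Promoter sequences of RefSeq (build GRCm38.p6, the assembly that mm10 names) were matched to 4 of the 9 genes, *C3*, *Cd55*, *C1ra* and *Cd59a*. Those of *C4b*, *C2*, *Cfb*, *Serping1* and *Masp1* are not analysed here. The 250 bases before the RefSeq start are printed. These 4 genes cover a change of over 2-fold (*Cd55*), smaller increases (*C3* and *C1ra*) and no called change (*Cd59a*). GENCODE M21 starts *C1ra* at 124512405, inside its printed window, so most of that window lies within the gene by that annotation. Capitals mark matches, on either strand, to CACGTG (an E-box), TGACTCA or TGAGTCA (AP-1), TTGNGNAA (C/EBP), GGGA and CC with any 4 bases between them (NF-κB), TTTC and TTTC with any 2 bases between them (interferon-stimulated response element), TTCNNNGAA (STAT) and TATAAA (the TATA box). No matches overlapped each other.
C3 (chr17:57228137-57228386, minus strand): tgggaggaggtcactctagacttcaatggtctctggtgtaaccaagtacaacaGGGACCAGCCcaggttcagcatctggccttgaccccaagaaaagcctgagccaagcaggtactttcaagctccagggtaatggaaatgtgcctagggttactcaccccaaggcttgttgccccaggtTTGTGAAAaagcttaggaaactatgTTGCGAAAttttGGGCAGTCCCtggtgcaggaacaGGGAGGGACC
Cd55 (chr1:130462745-130462994, minus strand): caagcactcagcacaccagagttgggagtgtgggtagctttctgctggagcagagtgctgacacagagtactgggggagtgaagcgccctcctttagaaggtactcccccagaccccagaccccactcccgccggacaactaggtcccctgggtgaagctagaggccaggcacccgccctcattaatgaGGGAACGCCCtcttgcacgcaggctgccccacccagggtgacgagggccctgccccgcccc
C1ra (chr6:124512371-124512620, plus strand): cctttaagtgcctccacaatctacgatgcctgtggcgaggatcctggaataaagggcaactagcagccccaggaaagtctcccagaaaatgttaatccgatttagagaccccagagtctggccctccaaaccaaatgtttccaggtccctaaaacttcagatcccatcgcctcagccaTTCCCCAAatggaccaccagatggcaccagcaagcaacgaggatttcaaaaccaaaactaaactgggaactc
Cd59a (chr2:104095551-104095800, plus strand): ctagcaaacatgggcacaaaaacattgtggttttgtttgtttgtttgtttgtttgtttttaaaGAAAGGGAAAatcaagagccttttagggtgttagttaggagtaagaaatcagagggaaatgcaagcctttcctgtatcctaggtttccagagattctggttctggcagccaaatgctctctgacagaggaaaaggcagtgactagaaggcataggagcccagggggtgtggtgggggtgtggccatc

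In *C3*, the capitals mark C/EBP matches that begin 70 and 45 bases before the start and NF-κB matches that begin 197, 33 and 10 bases before it. *Cd55* had an NF-κB match 61 bases before the start, *C1ra* a C/EBP match at 72 bases, and *Cd59a* an interferon-type match at 187 bases. No E-box, AP-1, STAT or TATA box match lay in the 4 windows. Over the 32536 distinct promoter windows of the same length, the C/EBP letters were found in 11.8%, the NF-κB letters in 17.7%, the interferon letters in 2.98%, the E-box in 6.04% and the AP-1 letters in 4.45%. The STAT letters were found in 7.04% and the TATA box in 12.3%. The motifs were chosen with the sequences in view, and a match is a description of letters only.

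*C3* (ENSMUSG00000024164, chromosome 17 of mm10 from 57203970 to 57228136, minus strand) encodes the protein on which all activation routes converge. It was at 655, 657 and 630 CPM in control replicates 1, 2 and 3 and at 1211, 1201 and 1148 CPM in senescent replicates 1, 2 and 3. The senescent libraries were all above the control libraries and lay close to each other. The increase was 1.83-fold (log2 0.87, SE 0.05, adjusted p = 2.91e-06, edgeR's quasi-likelihood test).

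*C4b* (ENSMUSG00000073418, chromosome 17 from 34728380 to 34743882, minus strand) encodes C4, which is cleaved by C1s and by MASP-2. Its level was 729, 756 and 727 CPM in the control libraries and 1210, 1224 and 995 CPM in senescent replicates 1, 2 and 3. The groups did not overlap, and senescent replicate 3 was the lowest of its group. The fold change was 1.55 (log2 0.63, SE 0.08, adjusted p = 0.000290, edgeR). Of the windows of 100 bases in the longest coding *C4b* transcript, 16.5% were also found in transcripts of the neighbouring copy *C4a*, so reads may have been split between the genes. *C4a* itself was at 9.19 ± 1.61 CPM in control MAFs against 12.8 ± 1.31 CPM after irradiation (SD, n = 3 each, adjusted p = 0.0161, edgeR). This call was lost without control replicate 1, control replicate 3 or senescent replicate 1 (adjusted p = 0.0522, 0.0555 and 0.0533, edgeR).

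The 4 protease genes rose by between 1.14-fold and 8.62-fold. *C1ra* (ENSMUSG00000055172, chromosome 6 from 124512632 to 124523440, plus strand) encodes C1r, which activates C1s within the C1 complex. It was at 52.1, 52.4 and 50.1 CPM in control and at 57.8, 58.9 and 59.8 CPM in senescent libraries. The groups were separate by a narrow margin, and the increase was 1.14-fold (log2 0.19, SE 0.05, adjusted p = 0.0125, edgeR). It no longer passed the threshold without control replicate 3 (adjusted p = 0.0726, edgeR). Of the 100-base windows in *C1ra*, 35.9% also occur in *C1rb* or *Gm18840*. *C1rb* was at only 1.15 CPM in control MAFs against 1.23 CPM after irradiation. *C1s1*, which encodes the partner protease C1s and lies 6905 bases from *C1ra*, had a larger fitted change. It rose from 53.8 ± 1.80 CPM to 123 ± 8.88 CPM (SD, n = 3 each), a log2 change of 1.19 (SE 0.07).

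*Masp1* (ENSMUSG00000022887, chromosome 16 from 23451785 to 23520590, minus strand) encodes MASP-1 and, by alternative splicing, MASP-3, which cannot be told apart in counts per gene. Its level was 77.5, 77.4 and 75.8 CPM in control libraries and 133, 129 and 124 CPM in senescent libraries. All senescent values were higher, with a fold change of 1.67 (log2 0.74, SE 0.05, adjusted p = 8.91e-06, edgeR). None of its 100-base windows occurred in another gene.

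*C2* (ENSMUSG00000024371, chromosome 17 from 34862604 to 34898265, minus strand) encodes the protease subunit of the C3 convertase that the classical and lectin pathways share. It was the least abundant of the 9 genes per gene length. It was at 2.17, 2.08 and 1.94 CPM in control and 9.71, 10.5 and 10.0 CPM in senescent libraries, with counts from 95 to 124 and from 538 to 844. The senescent libraries were well above the control libraries, with a fold change of 4.89 (log2 2.29, SE 0.09, adjusted p = 3.48e-07, edgeR).

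*Cfb* (ENSMUSG00000090231, chromosome 17 from 34856374 to 34862518, minus strand) encodes factor B, the protease of the alternative pathway, and had the largest increase of the 9 genes. Its level was 7.76, 8.13 and 7.15 CPM in control libraries and 68.2, 66.4 and 64.3 CPM in senescent libraries. The lowest senescent library was far above the highest control library. The fold change was 8.62 (log2 3.11, SE 0.07, adjusted p = 2.98e-08, edgeR), the 961st largest increase among the 17589 tested genes.

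*C2* and *Cfb* encode related proteases and lie 86 bases apart on the same strand. A readthrough gene, *Gm20547*, is annotated across them. All 3902 of its exonic bases in GENCODE M21 also lie in exons of *C2* or *Cfb*, which cover 1656 and 2246 bases of it. *Gm20547* nevertheless was given 428, 530 and 371 counts in control and 3849, 5349 and 5580 counts in senescent libraries, which is between 1.02 and 1.11 times the count of *Cfb*. By this annotation, reads in shared exons were counted for more than 1 gene, and the values of *Gm20547* are not independent of those of *Cfb* and *C2*. The exons of *C2* and *Cfb* do not overlap each other. On the opposite strand, *Zbtb12* shares 161 exonic bases with *C2* and fell by 1.03 on the log2 scale (SE 0.18, adjusted p = 0.00115, edgeR).

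Genes beside *Cfb* and *C2* had values below 0 on the log2 scale. *Nelfe*, whose end lies 2 bases from that of *Cfb*, was at 32.7 CPM in control MAFs against 28.7 CPM after irradiation and did not pass the test (adjusted p = 0.145, edgeR). *Ehmt2*, a histone methyltransferase gene that starts 204 bases from *C2*, fell by 0.63 on the log2 scale. *Skiv2l*, *Dxo* and *Stk19* lie between *C4a* and *Nelfe* and also fell, by 0.77, 0.79 and 0.47. Around all 9 genes, 25 other tested genes had a body within 50 kb, of which 7 were higher, 11 lower and 7 did not pass (adjusted p under 0.05, edgeR). By the same rule, 36.2% of all tested genes were higher and 34.1% lower. The higher genes included *Gm20547* and the complement genes *C4a*, *C1s1* and *Cd59b*. The other higher genes were *Tnxb*, *Gm15675* and *D430041D05Rik*.

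**Figure D2:**
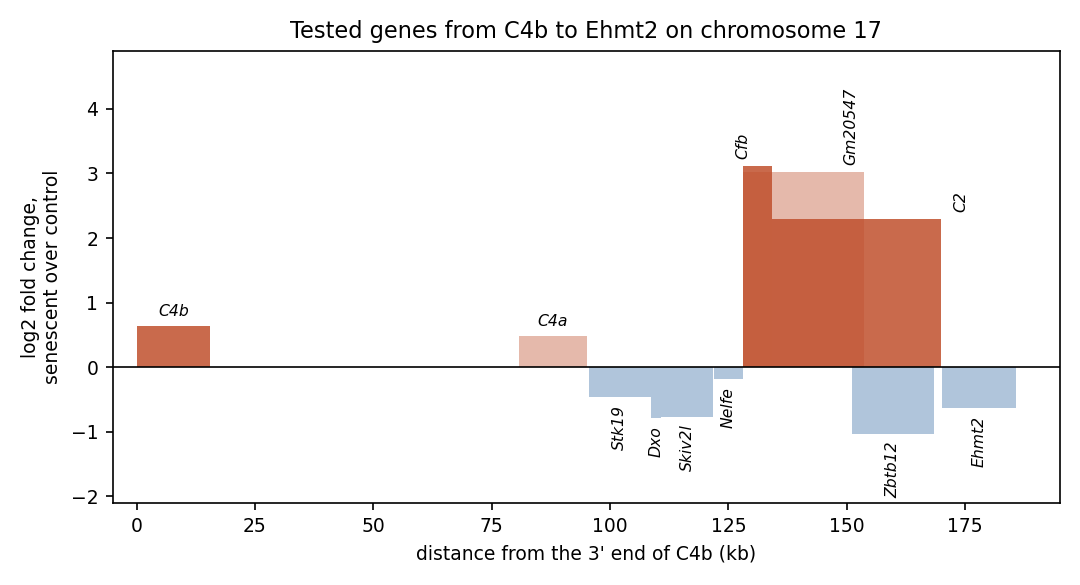
Log2 fold change (senescent over control) of the tested genes from *C4b* to *Ehmt2*, each drawn over its gene body in kb from the 3' end of *C4b*, with orange for higher, blue for lower and stronger colour for *C4b*, *Cfb* and *C2*. *Cfb*, *C2* and the overlapping *Gm20547* reach between 2.29 and 3.11, *C4b* and *C4a* lie at 0.63 and 0.48, and the other genes lie below 0.

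The inhibitors gave unlike values. *Serping1* (ENSMUSG00000023224, chromosome 2 from 84765387 to 84775444, minus strand) encodes C1 inhibitor, a serpin that inactivates C1r, C1s and MASP proteases. It was at 29.4, 30.6 and 28.5 CPM in control and 180, 175 and 169 CPM in senescent libraries. The groups were far apart, with a fold change of 5.92 (log2 2.57, SE 0.06, adjusted p = 2.58e-08, edgeR). None of its 100-base windows occurred in another gene.

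*Cd55* (ENSMUSG00000026399, chromosome 1 from 130439027 to 130462744, minus strand) encodes decay-accelerating factor, a membrane protein that takes C3 convertases apart. Its level was 2.49, 3.00 and 3.27 CPM in control libraries and 17.9, 17.7 and 20.6 CPM in senescent libraries. All senescent libraries were higher, and the fold change was 6.42 (log2 2.68, SE 0.12, adjusted p = 7.20e-07, edgeR). The long noncoding RNA gene *Gm15675*, on the same strand and 1836 bases away from *Cd55*, rose from 0.425 ± 0.0501 CPM to 2.79 ± 0.293 CPM (SD, n = 3 each). The nearby copy *Cd55b*, named *Daf2* in the table, held between 2 and 15 counts per library and was not tested.

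*Cd59a* (ENSMUSG00000032679, chromosome 2 from 104095801 to 104115354, plus strand) encodes a membrane inhibitor of the terminal pore. It was at 40.2, 41.6 and 43.6 CPM in control and 42.1, 40.7 and 47.7 CPM in senescent libraries. The groups overlapped, and the log2 change of 0.06 (SE 0.08) did not pass the test (adjusted p = 0.509, edgeR). Without senescent replicate 3 it was -0.004146. The neighbouring copy *Cd59b* was at 2.69 ± 0.197 CPM in control MAFs against 3.28 ± 0.158 CPM after irradiation (SD, n = 3 each, adjusted p = 0.0395, edgeR), a call that 7 of 13 alternative settings did not keep, among them the omission of control replicate 2 or 3 or of senescent replicate 1 or 2 (adjusted p from 0.0532 to 0.146, edgeR).

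Levels were compared between genes as CPM per kilobase of the gene length given in the table. In control cells the order was *C4b*, *C3*, *Masp1*, *Cd59a*, *C1ra*, *Serping1*, *Cfb*, *Cd55* and *C2*, from 130 to 0.532 CPM per kilobase. The ranges of the neighbours *C4b* and *C3* overlapped, as did those of *Cd55* and *C2*. In senescent cells the order was *C3*, *C4b*, *Serping1*, *Masp1*, *Cd59a*, *Cfb*, *C1ra*, *Cd55* and *C2*, from 231 to 2.60 CPM per kilobase, and only *Cd59a* and *Cfb* overlapped with their neighbour. *Serping1* moved from the 6th to the 3rd place. *C3* was above 99.2% and *C4b* above 99.1% of tested genes in senescent cells on this scale. In control cells they were already above 97.8% and 97.9%. *C3* and *C4b* together gave between 74.5% and 74.9% of the summed level of the 9 genes in control libraries and between 67.1% and 69.6% in senescent libraries. The table gives *Masp1* a length of 2752 bases, shorter than its exons in GENCODE M21, so its place depends on the annotation.

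**Figure D3:**
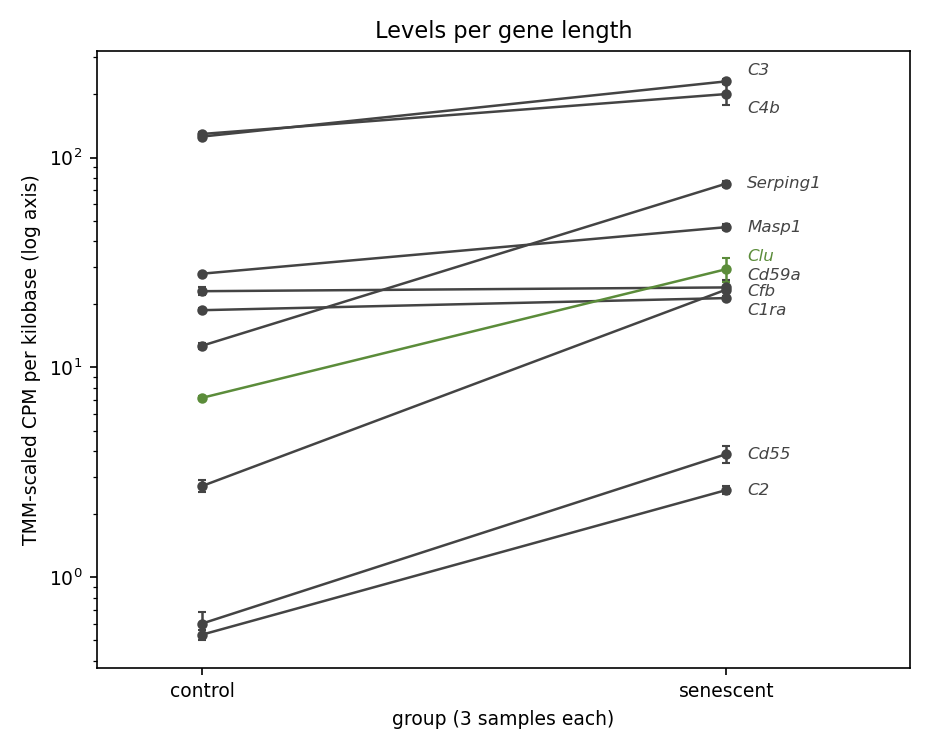
Mean level of each gene as TMM-scaled CPM per kilobase of gene length (log axis) in control and senescent cells, with error bars of 1 SD over 3 samples. The 9 complement genes are in grey and the regulator *Clu* in green. *C3* and *C4b* are highest in both groups.

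The wider complement system was examined with 57 genes of the table, including the 9 described above, of which 34 were tested. Of these, 28 were higher and 4 lower after irradiation by the same adjusted p (edgeR), with a median log2 fold change of 1.82, where 36.2% of all tested genes were higher and 34.1% lower. In 7 of the 34 genes no control library exceeded 3 counts, and their fitted fold changes depend on the prior count. The median was the same when these genes were set to the bound given by 3 counts per library. It could not have moved, because all 7 lie above the median with or without the bound. This cannot show the effect of the count filter, which such genes passed only through the senescent group. *C4bp*, *Colec11*, *Masp2*, *Cd93* and *Itgax* also passed it only through the senescent group. With at least 10 counts required in every library, 16 genes of the list were higher instead of 28. In that setting fewer genes of the list were tested, and 5151 of all 15205 tested genes were higher.

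All 4 tested soluble regulators were higher, where 36.2% of all tested genes were, and 7 others of the list were not tested. *Clu*, which encodes clusterin, rose from 24.6 ± 0.564 CPM to 101 ± 13.1 CPM. *C4bp*, which encodes the C4b-binding protein, rose from 0.0785 ± 0.0435 CPM to 1.47 ± 0.150 CPM (SD, n = 3 each). With 6, 2 and 4 counts in control libraries, it passed the count filter only through the senescent group. *Cfi*, which encodes the protease factor I, which cleaves C3b and C4b, had 3, 0 and 0 counts in control and 9, 19 and 23 counts in senescent libraries and was not tested. *Vtn*, which encodes vitronectin, had at most 2 counts in a library.

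Levels per length of the C1 proteases and their inhibitor were also compared as a ratio within each library, 1 of 3 ratios computed and chosen after the values had been seen. The sum of *C1ra* and *C1s1* over *Serping1* was 2.91, 2.74 and 2.85 in control libraries and 0.759, 0.782 and 0.884 in senescent libraries. The groups did not overlap, with means of 2.83 ± 0.0854 and 0.808 ± 0.0667 (SD, n = 3 each). The two-sided exact permutation p was 0.1, the smallest that 3 samples against 3 allow, before and after adjustment over the 3 ratios.

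Membrane regulators other than *Cd55* and *Cd59a* moved in both directions. *Cd46*, which in mice is known mainly from the testis, fell from 1.80 ± 0.115 CPM to 0.974 ± 0.127 CPM (SD, n = 3 each). *Cr1l*, which encodes Crry, the broadly expressed rodent regulator of C3 convertases, was at 74.9 CPM in control MAFs against 65.1 CPM after irradiation (log2 fold change -0.20, adjusted p = 0.0459, edgeR). This call was lost in 10 of 13 alternative settings, among them scaling by total counts without TMM factors (adjusted p = 0.188, edgeR) and the omission of any library other than senescent replicate 3 (adjusted p from 0.0632 to 0.151, edgeR). *Csmd1*, which encodes a large membrane protein with complement-inhibiting domains, rose from 0.633 ± 0.0574 CPM to 2.43 ± 0.320 CPM.

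Recognition proteins were near or at the limit of detection. *C1qa*, *C1qb* and *C1qc*, which encode the antibody-binding subunit of C1, had at most 1 count in a library. A count of 0 allows up to 3 counts, or between 0.0355 and 0.0613 CPM per library, and this limit covers counting error alone. *Mbl1*, *Fcnb* and *C1qc* had 0 counts in all libraries. *Colec11*, which encodes the collectin CL-11, had 4, 1 and 1 counts in control and 43, 42 and 60 counts in senescent libraries, and *Fcna* and *Colec10* were also below 40 counts in each library. *Masp2*, which encodes the lectin pathway protease that cleaves C4, was at 0.107 CPM in control MAFs against 0.381 CPM after irradiation (adjusted p = 0.0129, edgeR). It had 5, 12 and 1 counts in control and 24, 30 and 28 counts in senescent libraries. It passed the count filter only through the senescent group, so a lower value could hardly have been found.

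Genes of the terminal pore and of the alternative pathway other than *Cfb* were low. *Hc*, which encodes C5, had 2, 2 and 0 counts in control and 17, 25 and 22 counts in senescent libraries. *C6* had 0, 2 and 0 and then 26, 25 and 33 counts. *C7*, *C8a*, *C8b* and *C9* had at most 10 counts in a library and were not tested, and *C8g* fell by 1.28 on the log2 scale. *Cfp*, which encodes properdin, the stabiliser of the alternative convertase, fell from 4.91 ± 0.571 CPM to 2.73 ± 0.411 CPM (SD, n = 3 each, adjusted p = 0.00114, edgeR). *Cfd*, which encodes the protease that cleaves factor B, had at most 11 counts in a library.

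All 6 tested receptor genes were higher, where 36.2% of all tested genes were, and 4 others of the list were not tested. In 3 of the 6, no control library had more than 1 count. In control libraries, *Cd93* had 8, 6 and 6 counts and *Itgax* 12, 10 and 9 counts. All of these genes passed the count filter only through the senescent group, so a lower value could hardly have been found. *C3ar1*, which encodes the receptor for the C3a fragment, had 0, 1 and 0 counts in control and 10, 26 and 39 counts in senescent libraries. *Itgam* and *Itgb2*, the subunits of complement receptor 3 on leukocytes, had at most 1 count per control library and between 29 and 78 per senescent library. *C1qbp*, a mostly mitochondrial protein that can bind C1q, rose from 64.0 ± 2.53 CPM to 118 ± 8.61 CPM (SD, n = 3 each). Markers of macrophages moved in the same direction. Their summed level over 10 genes was between 8.78 and 9.32 CPM in control and between 18.9 and 21.7 CPM in senescent libraries. Of these, 6 of 7 tested genes were higher, where 36.2% of all tested genes were. *Laptm5*, *Ptprc* and *Lyz2*, with at most 21 counts in a control library, passed the count filter only through the senescent group. *Adgre1*, *Fcgr1* and *Tyrobp* were too low to be tested. The part of macrophages in the receptor values was not tested.

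**Figure D4:**
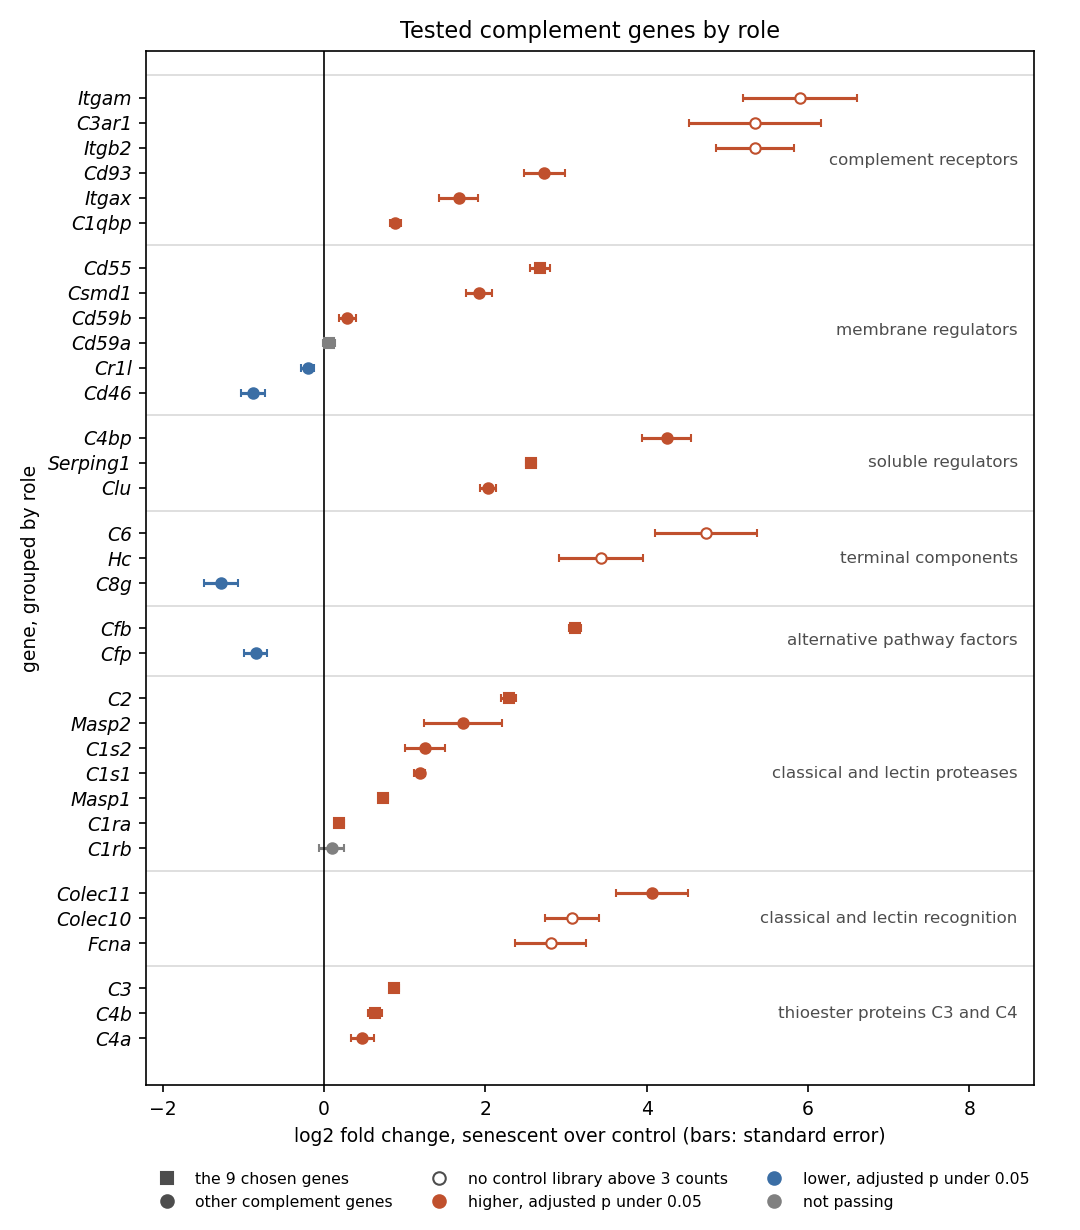
Log2 fold change (senescent over control) of 33 of the 34 tested complement genes, grouped by role, with bars of 1 standard error from edgeR's quasi-likelihood fit. Squares mark the 9 chosen genes, open symbols mark genes in which no control library exceeded 3 counts, and orange, blue and grey mark higher, lower and not passing. The genes in blue are *Cr1l*, *Cd46*, *C8g* and *Cfp*, of which *Cr1l* loses its call in 10 of 13 alternative settings.

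Genes whose pattern over the 6 libraries was most like that of *C3* were *Hk2*, *Asap1* and *Prnp*, with root mean square differences between 0.0247 and 0.0301 in log2 CPM centred on each gene's mean. Their log2 fold changes were 0.86, 0.88 and 0.85. *Prnp* rose from 296 to 533 CPM, *Asap1* from 143 to 264 CPM and *Hk2* from 34.7 to 63.0 CPM.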

How the data were processed

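RNA-seq was performed on 3 control and 3 senescent samples of MAFs, with stranded libraries made from 200 ng of RNA. The authors ran the MAPRSeq pipeline on paired reads of 100 bases (STAR on mm10, then Subread per gene) and deposited the counts without normalization. Whether strand was used and how reads shared by several genes were handled is not given in the sources used here. The other column used, the gene length in bases, is as deposited.

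From the counts, 17589 genes were kept with edgeR's filterByExpr, TMM factors were computed, and a robust quasi-likelihood model (edgeR 4.0.16, R 4.3.3) was fitted with group as the only term, a two-sided test and Benjamini-Hochberg adjustment. The methods were tested on simulated data. Levels per length divide CPM by the deposited gene length. The values of 1 tested gene of the wider list are not reported here. Windows of 100 bases were searched in GENCODE M21 transcripts.

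The 9 genes, the wider lists and the tests were chosen with earlier results of these data known. The text names all 9 genes, other complement genes averaging 50 counts or more, close copies and partners of the 9, and, in ranges or counts, the rest of each list. It also names the 3 acute-phase genes with the highest mean count and the 3 genes most like *C3* among those averaging 100 counts or more, and genes adjacent to the 9. *Cdkn1a*, *Saa3*, *C1rl*, *Gm15675*, *Tnxb*, *D430041D05Rik*, *Stk19*, *Dxo*, *Skiv2l*, *Colec10*, *Colec11*, *Fcna*, *Itgam*, *Itgb2*, *Cfd*, *C8g* and the genes named at or near 0 counts were added to these once the values were known. So were *Cd93*, *Itgax*, *Cdh5*, *Vwf*, *Kdr*, *Dsp*, *Des*, *Laptm5*, *Ptprc* and *Lyz2*.

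Other settings were edgeR's RLE factors, no scaling factors beyond library size, tests of every gene with a count, a filter of 10 counts per library, the exact test of edgeR, DESeq2 1.42.0, the replicate number as a block, and omission of single libraries.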

Additional observations from a re-analysis of the deposited data

How the results depend on the processing

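In the 13 alternative settings, 7 or 8 of the 9 complement genes were higher and 0 were lower. In each setting, 4 passed the threshold of the study's methods section (over 2-fold, unadjusted p under 0.05). The study's results section names another p-value limit, which was not used here. Over the 9 genes, 114 of 117 values kept their direction and side of the adjusted p threshold of 0.05. The exceptions were *C1ra*, which missed the threshold with the replicate block and without control replicate 3, and *Cd59a*, whose log2 change was between -0.004146 (without senescent replicate 3) and 0.114 (without senescent replicate 2) when single libraries were left out and reached 0.14 when libraries were scaled by total counts. With each library left out in turn, between 26 and 28 genes of the wider list were higher and 3 or 4 lower. Over all tested genes, 5930 of 17928 were higher and 5284 lower without control replicate 2, the fewest. Without senescent replicate 3, 7052 of 17779 were higher and 6643 lower, the most. When genes under 10 counts in any library were dropped, 16 genes of the wider list were higher instead of 28, because fewer low genes were tested. Over all genes, 5151 of 15205 were higher with that filter. Without a filter on low counts, 34 genes of the wider list were higher, beside 7705 of all 29776 tested genes.

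Control and senescent samples share replicate numbers, but the labels do not say what a number stands for. The deviations of same-numbered libraries from their group means had correlations of -0.145, 0.135 and -0.120, so the numbers were not taken as pairs. With the replicate block, 7 of the 9 genes were higher and 0 lower (adjusted p of *C1ra* = 0.0573, edgeR). By the threshold of the study's methods section 4 passed, and 26 genes of the wider list were higher and 3 lower by adjusted p. With this block, 5964 of all 17589 tested genes were higher and 5660 lower. Libraries of 50288454 to 82229553 counts leave components such as the C1q subunits and *Vtn* undetectable below about 3 counts.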

Other observations

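Acute-phase genes, whose products rise in inflammation like those of several complement genes, went in both directions. After irradiation, 8 of 12 tested members of this group were higher and 4 lower (adjusted p under 0.05, edgeR's quasi-likelihood test). The shares over all tested genes were 36.2% higher and 34.1% lower. The median log2 fold change of the group was 1.30, compared with 0.01 over all tested genes. *Cp*, which encodes ceruloplasmin, rose from 174 ± 10.8 CPM to 1004 ± 119 CPM, and *Serpina3n*, a serpin gene, from 286 ± 12.8 CPM to 1064 ± 20.3 CPM (SD, n = 3 each). *Ptx3*, which encodes a pentraxin that can bind C1q, fell from 709.7 ± 17.8 CPM to 411 ± 20.1 CPM. *Saa3* had between 4 and 9 counts in control libraries and between 457 and 674 counts in senescent libraries. It passed the count filter only through the senescent group.

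*C1rl*, which encodes a C1r-like protease and lies 1989 bases from *C1ra* on the same strand, fell from 23.1 ± 1.27 CPM to 8.72 ± 0.538 CPM (SD, n = 3 each), a log2 change of -1.41 (SE 0.08).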
